A study of Rattus norvegicus with 30 samples.

Results

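Glutamate receptor subunits were described in the brain of 30 male Sprague Dawley rats, as the rows of the expression table whose gene symbol is Gria1, Gria2, Gria3, Gria4, Grin1, Grin2a, Grin2b, Grm2, Grm3 or Grm5. Of these 10 genes, 9 were found by symbol among the 17134 genes of the table, and all 9 passed the filter on low values. Gria3 was not matched by symbol and was not analysed here.

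The rats formed 3 groups of 10, all on a normal diet, and the tissue was labelled frontal cortex. The study's own text calls it cerebral cortex in one place and speaks of hippocampal genes in another, so the sources differ on the region. Wild type (WT) rats express rat amylin, a pancreatic hormone that does not form amyloid in this species. HIP rats express rat amylin and, in addition, amyloid-forming human amylin from their pancreatic β-cells, so that the transgene is expressed outside the brain. AKO rats are rat amylin knockouts that carry no human amylin; their animals bear 2 kinds of names, 4 with KAH and 6 with AKO, and the labels do not say what the names mean. HIP and WT rats were 15 to 16 months old, while the age of the AKO rats was not stated separately for this experiment. HIP vs. WT asks whether human amylin from the pancreas goes with a change in brain transcripts, and AKO serves as a group without amylin. The paper reports that HIP rats develop type-2 diabetes with disturbed blood glucose. HIP vs. WT therefore joins the transgene with diabetes, and the 2 cannot be told apart here. All WT and HIP rats bear names with RT and no AKO rat does, so comparisons with AKO join genotype with the series of names. The knocked-out gene, Iapp, was not analysed here, so the labels were not checked against it.

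Glutamate is the main excitatory transmitter of the cerebral cortex. AMPA receptors, built from Gria subunits, carry the fast part of the synaptic current, and NMDA receptors, built from Grin1 with Grin2 subunits, pass calcium when transmitter and depolarization coincide. Metabotropic Grm receptors signal through G proteins: Grm2 and Grm3 lower cyclic AMP and restrain transmitter release, whereas Grm5 is coupled to phospholipase C. Subunit makeup differs between brain regions, with Gria4 and Grin2c prominent in cerebellum and Grin2b and Grm5 prominent in forebrain.

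Values are read counts that were normalized between libraries, and a difference is on the scale of log2(normalized count + 1). Transcript lengths were not used, so levels were compared between rats for 1 gene and not between genes. The libraries held about 15400000 to 18000000 normalized counts each. Mean log2 values of 8 neocortex markers lay between 9.62 and 10.6 in all rats except WT rat 10RT43, in which they were 6.31 while cerebellum markers were at 11.6. A further 4 libraries stood apart and were left out together with 10RT43 in alternative fits: HIP rat 12RT23, with cerebellum markers at 8.27, HIP rat 10RT46, with pineal gland markers at 9.40 and choroid plexus markers at 9.14, AKO rat 7AKO19, with choroid plexus markers at 7.01, and AKO rat 6KAH98, with a median correlation of 0.949 with the other rats. In the remaining 25 rats cerebellum markers did not exceed 2.22, and 4 hippocampus markers lay between 4.76 and 6.31. Other region markers varied more in these 25 rats, from 7.08 to 9.68 for striatum and from 3.69 to 10.0 for olfactory bulb. The 5 libraries that stood apart were picked after the values had been seen. For 6KAH98 this included its low values of receptor genes, and AKO rat 4KAH27, with a median correlation of 0.952, was kept. In bulk tissue, fewer cells of a type and less RNA per cell cannot be told apart.

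Of the AMPA receptor subunits, Gria4 was lower in AKO vs. WT rats, and none of the other receptor genes named above passed the test in that comparison. Gria4 encodes the subunit that gives receptors fast kinetics and is carried by many interneurons. Its lowest, median and highest normalized counts were 1422, 2021 and 7314 in WT rats, 1162, 1770 and 2524 in HIP rats, and 922, 1499 and 1955 in AKO rats. The ranges overlapped, but all 10 AKO rats lay below the WT median, and the highest WT value was that of 10RT43, with the next WT rat at 2227. Gria4 differed by -0.58 (SE 0.21, 95% interval -1.02 to -0.14, n = 10 males/group) in AKO vs. WT rats, a 1.50-fold lower level (limma, unadjusted p = 0.0115, adjusted p = 0.388). At an unadjusted p under 0.05, 1 of 9 receptor genes was called in AKO vs. WT rats, against 9.34% of the 17058 genes tested. After adjustment over all genes none of the 9 was called, against 0.0997% of all genes. Of 7 GABA neuron markers 1 was lower in AKO vs. WT rats at an unadjusted p under 0.05 in limma. Of 7 microglia markers 3 were higher, as was 1 of 3 oligodendrocyte precursor markers. The median differences of these lists were 0.08, 0.25 and 0.30, in a fit that held 10RT43. Per rat, the mean log2 value of the GABA neuron markers had a median of 10.18 in WT and 9.97 in AKO rats. Mean log2 values of the GABA neuron markers were 7.22 to 10.3 in WT and 9.59 to 10.3 in AKO rats, with Vip listed at 0 in 10RT43, and those of the microglia markers were 8.46 to 9.50 and 8.40 to 9.70. Their part in the Gria4 difference was not tested.

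The Gria4 difference kept its direction when libraries were left out. Without the 5 libraries that stood apart it was -0.34 (SE 0.10, limma unadjusted p = 0.00204, adjusted p = 0.209), with WT values of 1422 to 2227 in 9 rats and AKO values of 1236 to 1955 in 8 rats. Leaving out 6KAH98 alone gave -0.51 (limma, unadjusted p = 0.0251), and leaving out 10RT43 alone gave -0.39 (limma, unadjusted p = 0.00309). Gria4 also varied with the olfactory bulb content of the libraries. Among the 25 remaining rats, Gria4 was at 1236 to 1817 in the 10 rats with bulb markers of at least 6.5 and at 1281 to 2524 in the 15 rats below that limit, which was set after the marker values had been seen. The bulb-rich libraries came from 3 WT, 3 HIP and 4 AKO rats. Within the bulb-poor libraries the difference was -0.42 (6 WT and 4 AKO rats, limma, unadjusted p = 0.00159), and within the bulb-rich libraries it was -0.16 (3 WT and 4 AKO rats, 95% interval -0.47 to 0.15, limma, unadjusted p = 0.265). The KAH-named AKO rats differed from WT rats by -0.79 (limma, unadjusted p = 0.0215) and the AKO-named ones by -0.44 (limma, unadjusted p = 0.101). Among all alternatives the adjusted p in limma ranged from 0.00690, with the first component of the residuals as a covariate, to 0.785, with the AKO-named rats only. That component was taken from the residuals of a fit that already held the groups. It therefore left the difference as it was and changed only its error. With it, 408 of 17058 genes were called after adjustment in AKO vs. WT rats, beside 17 without it.

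**Figure D1:**
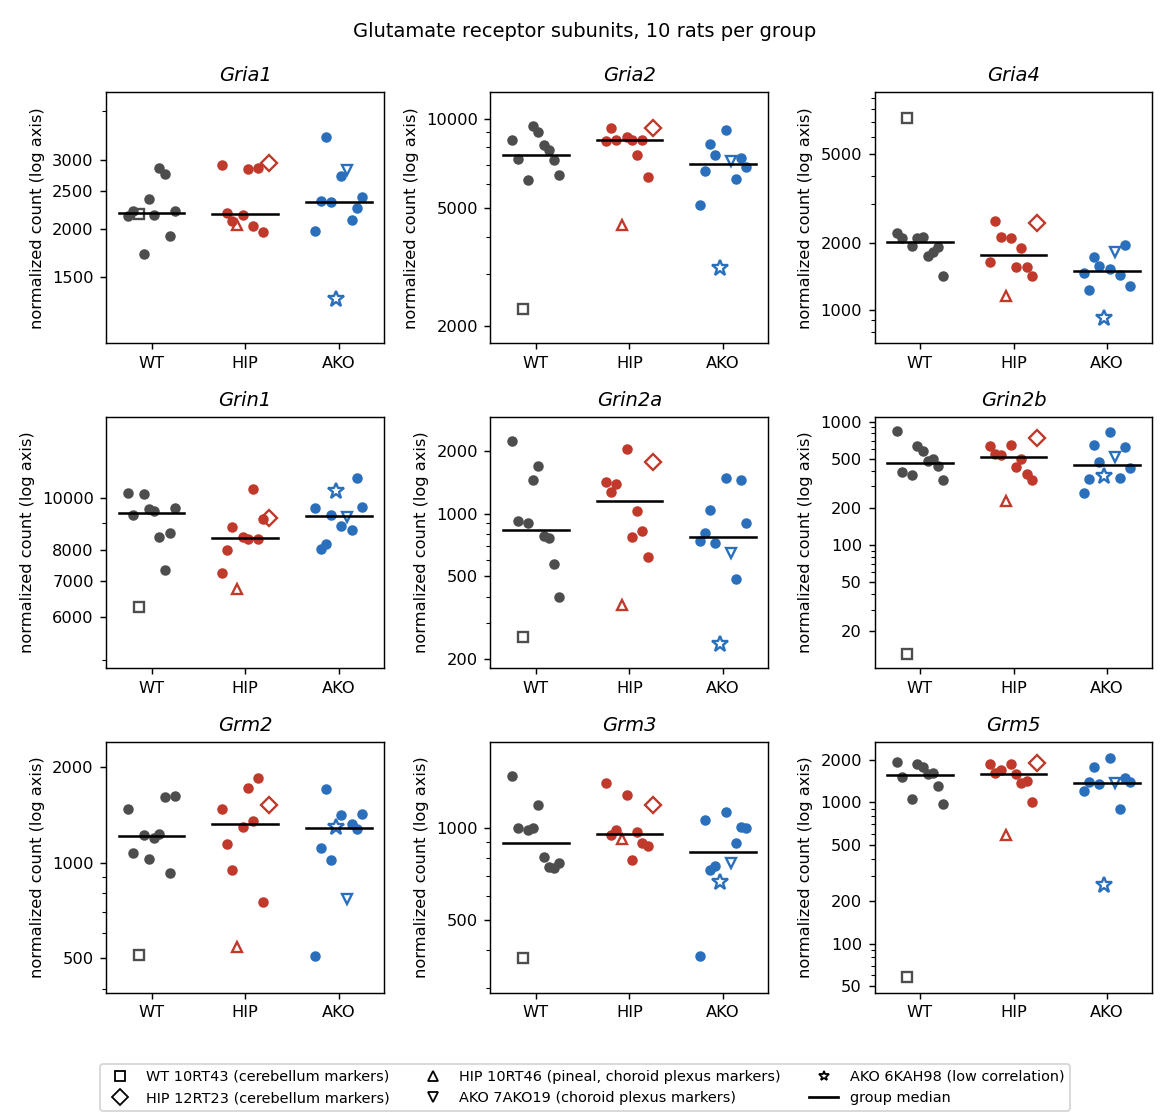
Normalized counts of the 9 glutamate receptor genes (log axes) in WT, HIP and AKO rats, 10 per group. Each point is 1 rat, open symbols are the 5 libraries that stood apart and lines are group medians. WT rat 10RT43 is high for Gria4 (7314) and low for Grin2b (13.2) and Grm5 (58.6), and the groups overlap in all 9 panels.

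In HIP vs. AKO rats Gria4 and Grm3 sat at the threshold. Gria4 was 0.29 higher in HIP rats (SE 0.14, 95% interval 0.00 to 0.59, limma, unadjusted p = 0.0493, adjusted p = 0.390), with 8 of 10 HIP rats above the AKO median. With a minimum mean of 10 in place of 1, the unadjusted p of Gria4 was 0.0502, and without 6KAH98 it was 0.104. Leaving out each rat in turn, the Gria4 difference stayed between 0.22 and 0.36 (limma, lowest unadjusted p = 0.0119). With 1 rat left out at a time, fewer of the 9 genes were called in 14 of 20 fits, and 4 were called without HIP rat 10RT46. In HIP vs. WT rats Gria4 differed by -0.29 (SE 0.22, limma, unadjusted p = 0.199), which became -0.07 without the 5 libraries. The 3 comparisons share rats, so these values are not independent.

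RefSeq promoter sequence was at hand for 3 of the 9 genes, Gria4, Grin1 and Grm5, and the 100 bases before each start (build GRCr8) are shown. Capitals mark CG dinucleotides.
Gria4, chr8:10319882-10319981, minus strand: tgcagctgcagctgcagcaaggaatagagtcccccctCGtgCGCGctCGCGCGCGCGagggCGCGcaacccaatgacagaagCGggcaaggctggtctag
Grin1, chr3:28528755-28528854, minus strand: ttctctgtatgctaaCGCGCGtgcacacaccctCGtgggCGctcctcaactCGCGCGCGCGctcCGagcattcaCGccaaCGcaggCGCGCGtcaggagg
Grm5, chr1:150733653-150733752, plus strand: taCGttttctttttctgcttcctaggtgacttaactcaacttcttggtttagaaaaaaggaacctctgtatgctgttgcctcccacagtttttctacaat
The Gria4 and Grin1 stretches held 67% G and C with 11 and 16 CG dinucleotides, and the Grm5 stretch held 38% with 1, beside a median of 54% and 3 over 33469 promoters of this length. GGGCGG, TGACGTCA and TATAAA, searched on both strands, were in none of the 3, and in 21.6%, 1.08% and 5.78% of all. Nothing in these data measures the promoters themselves.

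Gria1 and Gria2, the subunits of most AMPA receptors on excitatory neurons, were not called in any comparison. Gria1, at 1720, 2195 and 2869 in WT rats, was at 1962, 2183 and 2953 in HIP rats and at 1319, 2346 and 3445 in AKO rats, and the groups overlapped widely. Its differences were 0.09 in HIP vs. WT rats (95% interval -0.12 to 0.30), 0.05 in AKO vs. WT rats (-0.22 to 0.32) and 0.04 in HIP vs. AKO rats (-0.23 to 0.31). Gria1 followed the olfactory bulb content in the other direction than Gria4: the 10 bulb-rich libraries held 2104 to 3445 and the 15 bulb-poor ones 1720 to 2406. Gria2, whose edited form makes the channel impermeable to calcium, was at 2277, 7563 and 9434 in WT rats, at 4382, 8456 and 9288 in HIP rats and at 3145, 7035 and 9171 in AKO rats. The lowest rat of each group was a library that stood apart, and without them Gria2 spanned 5109 to 9434. Gria2 differed by 0.18 (-0.23 to 0.60) in HIP vs. WT rats, by -0.07 (-0.52 to 0.38) in AKO vs. WT rats and by 0.25 (-0.07 to 0.58) in HIP vs. AKO rats.

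Gria2 made up 57.7% to 68.3% of the summed normalized counts of Gria1, Gria2 and Gria4 in every rat but 10RT43, where it was 19.3% and Gria4 was 62.2%. These shares rest on counts without a length correction, so they serve to compare rats. Median shares of Gria4 were 16.7% in WT, 15.8% in HIP and 14.3% in AKO rats, and those of Gria1 were 18.0%, 20.1% and 22.9%. The share of Gria1 ran from 15.7% to 26.96% over all rats, and that of Gria4 from 11.4% to 19.7% in every rat but 10RT43, in a sum that lacks Gria3. The ranges of the groups overlapped for both, and the shares were not tested.

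**Figure D2:**
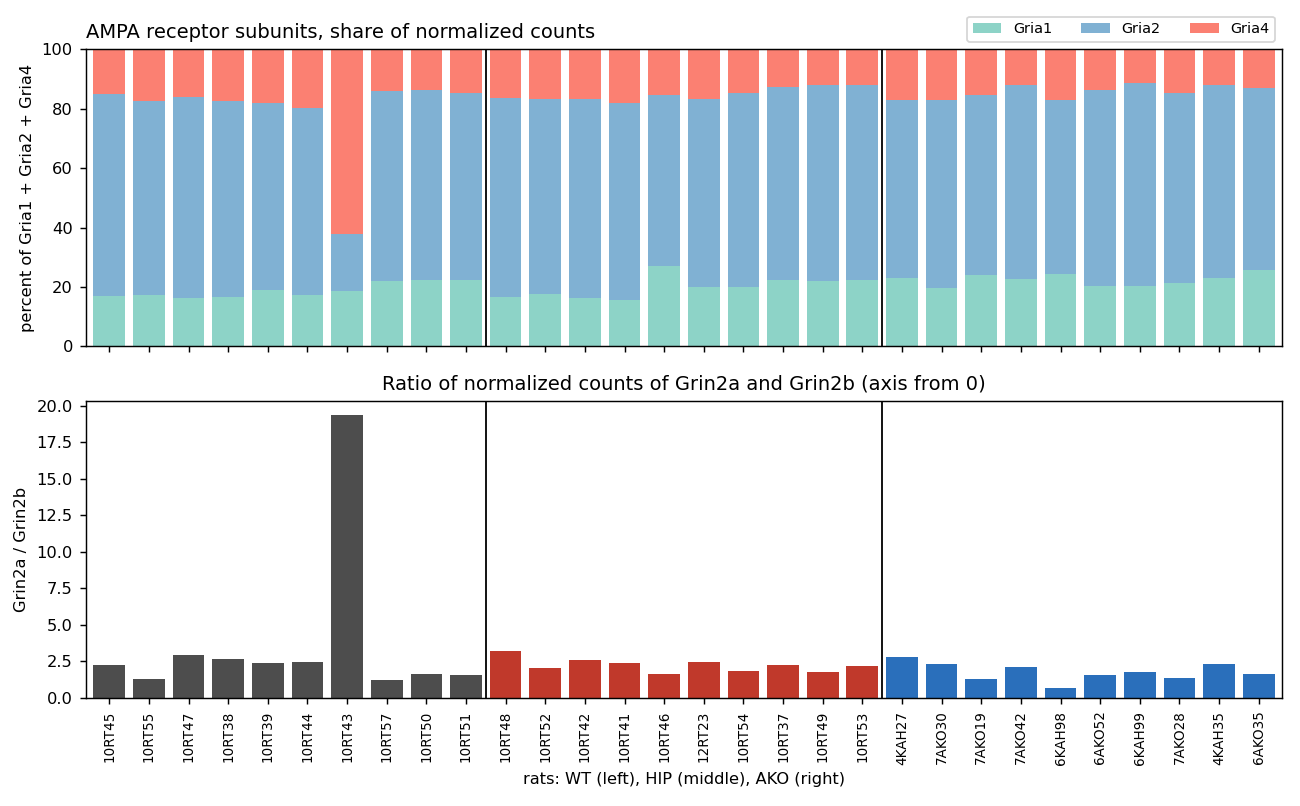
Upper panel, percent of the summed normalized counts of Gria1, Gria2 and Gria4 per rat; lower panel, ratio of Grin2a to Grin2b per rat, both axes from 0 and the rats ordered within WT, HIP and AKO by olfactory bulb markers. WT rat 10RT43 stands out with 62.2% Gria4 and a Grin2a to Grin2b ratio of 19.4.

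NMDA receptor subunits did not pass the test in any of the 3 comparisons. Grin1, the subunit that every NMDA receptor holds, varied least of the 9 genes, with an SD within groups of 0.18 on the log2 scale. Its normalized counts were 6275, 9375 and 10239 in WT rats, 6763, 8423 and 10393 in HIP rats, and 8022, 9271 and 10891 in AKO rats. In HIP rats 9 of 10 values lay below the WT median, and the difference was -0.06 (95% interval -0.25 to 0.12, limma, unadjusted p = 0.477). The lowest WT value was that of 10RT43. With 1 rat left out at a time, the HIP vs. WT difference ran from -0.12 to -0.03 (limma, lowest unadjusted p = 0.127). In HIP vs. AKO rats Grin1 differed by -0.13 (-0.29 to 0.02, limma, unadjusted p = 0.0831), and in AKO vs. WT rats by 0.07 (-0.11 to 0.25).

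Grin2a and Grin2b, the regulatory subunits that set channel kinetics, with Grin2b the more juvenile and Grin2a the more mature form, varied widely inside each group. Grin2a was at 255, 840.2 and 2253 in WT rats, 365, 1153 and 2048 in HIP rats, and 236, 772 and 1493 in AKO rats. The lowest rats were again 10RT43, 10RT46 and 6KAH98, yet without the 5 libraries Grin2a still ran from 398 to 2253, an SD within groups of 0.65 that exceeded those of 97.8% of 11590 genes (those with a mean over all rats of 100 or more). Its differences were 0.31 (-0.43 to 1.05) in HIP vs. WT rats, -0.13 (-0.87 to 0.62) in AKO vs. WT rats and 0.44 (-0.20 to 1.08) in HIP vs. AKO rats, intervals that leave room for a change of either sign. Grin2b was at 13.2, 457 and 839 in WT rats, 227, 518 and 732 in HIP rats, and 265, 445 and 827 in AKO rats, and the lowest WT rat, 10RT43, was 36.6-fold below the median of the other 9. The Grin2b difference of 0.46 in HIP vs. WT rats (-0.60 to 1.52) became 0.00 (SE 0.17) without the 5 libraries, and that of 0.42 in AKO vs. WT rats (-0.63 to 1.47) became -0.07. The ratio of Grin2a to Grin2b had medians of 2.32 in WT, 2.23 in HIP and 1.71 in AKO rats, and ranged from 0.651 in 6KAH98 to 19.4 in 10RT43.

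Of Grm2, Grm3 and Grm5, only Grm3 was called, and only in HIP vs. AKO rats. Grm3, found on astrocytes and neurons, was at 376, 896 and 1483 in WT rats, 789.6, 961 and 1406 in HIP rats, and 381, 833 and 1134 in AKO rats. The ranges overlapped, while 9 of 10 HIP rats lay above the AKO median. Grm3 was 0.33 higher in HIP vs. AKO rats (SE 0.16, 95% interval 0.00 to 0.65), a 1.25-fold difference (limma, unadjusted p = 0.0484, adjusted p = 0.389). With Gria4, this made 2 of 9 genes called at an unadjusted p under 0.05, against 12.7% of the 17092 genes tested, and none after adjustment, against 0.17%. In the same comparison 3 of 8 neocortex, 1 of 7 microglia and 1 of 4 hippocampus markers were higher at an unadjusted p under 0.05 in limma. Lower were 2 of 7 astrocyte, 3 of 7 microglia, 1 of 4 excitatory neuron, 1 of 6 thalamus and 1 of 3 oligodendrocyte precursor markers. Median differences were 0.21 for the neocortex, 0.03 for the astrocyte and -0.19 for the microglia list. Mean log2 values of the astrocyte markers were 11.1 to 11.6 in HIP and 10.6 to 11.8 in AKO rats, those of the neocortex markers 9.81 to 10.5 and 9.62 to 10.4, and those of the microglia markers 8.97 to 10.1 and 8.40 to 9.70. Their part in the Gria4 and Grm3 differences was not tested. Without the 5 libraries Grm3 differed by 0.27 (limma, unadjusted p = 0.158). The AKO rat at 381 was 4KAH27, which stayed in that fit. Grm3 differed by 0.23 (-0.14 to 0.60) in HIP vs. WT rats and by -0.09 (-0.53 to 0.34) in AKO vs. WT rats.

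Grm2, an autoreceptor of glutamatergic terminals, was at 513, 1208 and 1621 in WT rats, 542, 1319 and 1848 in HIP rats, and 507, 1286 and 1707 in AKO rats. These ranges nearly coincided, and the differences were 0.06 (-0.39 to 0.51) in HIP vs. WT rats, -0.01 (-0.44 to 0.42) in AKO vs. WT rats and 0.07 (-0.38 to 0.52) in HIP vs. AKO rats. Like Gria1, Grm2 was higher in the bulb-rich libraries, at 1111 to 1848, than in the bulb-poor ones, at 507 to 1478, with an overlap. Grm5, the main postsynaptic receptor of group I in forebrain, was at 58.6, 1564 and 1937 in WT rats, 591, 1604 and 1900 in HIP rats, and 261, 1382 and 2078 in AKO rats. The lowest rat of each group was 10RT43, 10RT46 and 6KAH98, which lay 27.3-fold, 2.72-fold and 5.34-fold below the medians of their groups without the libraries that stood apart. Grm5 differed by 0.40 (-0.57 to 1.37) in HIP vs. WT rats, by 0.14 (-0.90 to 1.18) in AKO vs. WT rats and by 0.26 (-0.32 to 0.84) in HIP vs. AKO rats, and without the 5 libraries by 0.04, -0.07 and 0.12.

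In HIP vs. WT rats none of the 9 receptor genes was called at an unadjusted p under 0.05, against 2.57% of the 17085 genes tested, and at an adjusted p no gene of the table was called (0%; limma, smallest adjusted p = 0.999). Of the 9 differences 7 were above 0 and 2 below, and their median was 0.18 beside 0.00 over all genes. This count leaned on WT rat 10RT43, the lowest WT rat for 7 of the 9 genes. Without that rat Grin2b, Grm2 and Grm5 differed by -0.048, -0.068 and -0.062. With any 1 rat left out, Gria1, Gria2, Grin2a and Grm3 stayed above 0, with lowest values of 0.045, 0.0087, 0.12 and 0.098. Without the 5 libraries the 95% intervals of HIP vs. WT rats were narrower, running for Grm5 from -0.26 to 0.34 and for Gria2 from -0.10 to 0.26. Estimated reads per library, with medians of about 19100000 in WT and 15700000 in HIP rats, moved with this comparison. A fit that holds both is thus partly confounded between depth and genotype. With estimated reads as a covariate, 5 of the 9 receptor genes (Gria2, Gria4, Grin2b, Grm3 and Grm5) had an unadjusted p under 0.05 in limma. So did 4107 of all 17085 genes tested. This fit was chosen as an alternative, and its part in the result was not otherwise tested.

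**Figure D3:**
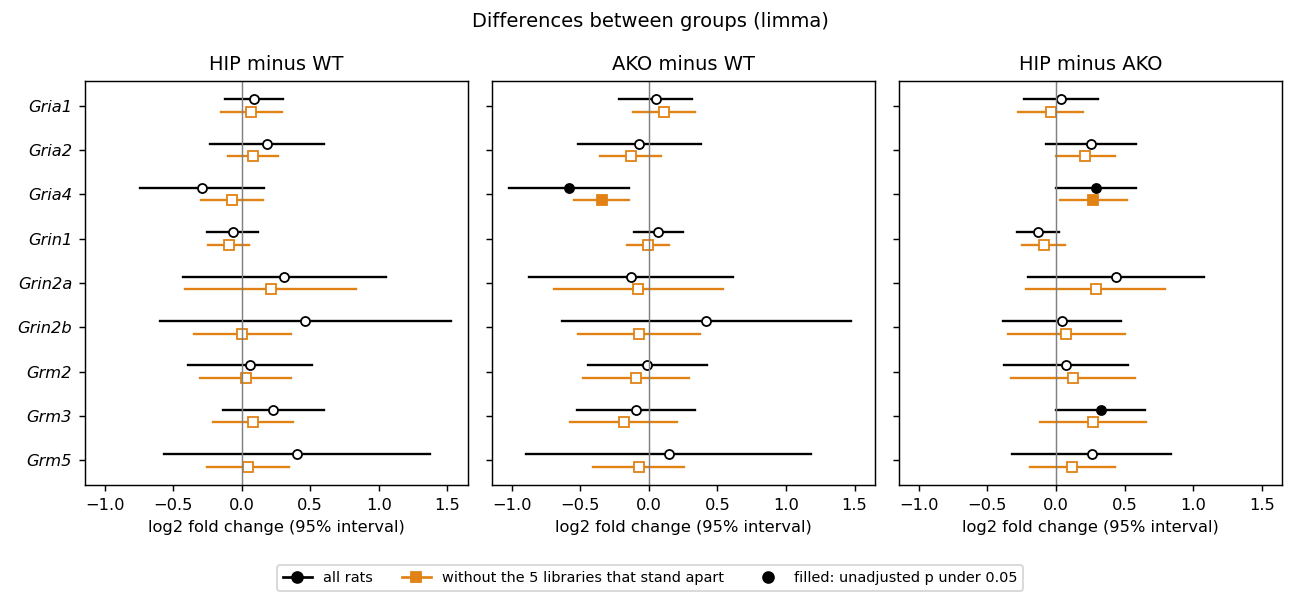
Log2 fold changes of the 9 receptor genes with 95% intervals in the 3 comparisons; circles are all rats (10 per group), squares the fit without the 5 libraries that stood apart, and filled symbols have an unadjusted p under 0.05. Gria4 in AKO vs. WT rats is filled in both fits (-0.58 and -0.34), Grm3 in HIP vs. AKO rats only with all rats (0.33).

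Over the 30 rats the highest value was 1.74-fold the lowest for Grin1 and 63.8-fold the lowest for Grin2b. WT rat 10RT43 was the lowest WT rat for 7 of the 9 genes and the highest for Gria4, and over all genes it was the lowest for 31.2% and the highest for 29.4%. This rat also held the highest values of Grin2c and Grm4, receptor genes known from cerebellum, with Grin2c at 4675 beside 302 to 1435 in the other rats and Grm4 at 7321 beside 429 to 1808. Of the 9 genes, 7 had their lowest HIP value in 10RT46, as did 24.7% of all genes, and 5 had their lowest AKO value in 6KAH98, as did 27.4%. HIP rat 12RT23, also with cerebellum markers, was by contrast the highest HIP rat for Gria1, Grin2b and Grm5. AKO rat 6KAH99 was the highest AKO rat and WT rat 10RT38 the highest WT rat for 5 genes each. With the 5 libraries left out, the SD within groups fell from 1.04 to 0.44 for Grin2b, from 1.04 to 0.34 for Grm5 and from 0.46 to 0.21 for Gria2. It fell from 0.83 to 0.65 for Grin2a and from 0.43 to 0.39 for Grm3. These libraries were picked after the values had been seen, so a smaller SD follows in part from the choice.

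**Figure D4:**
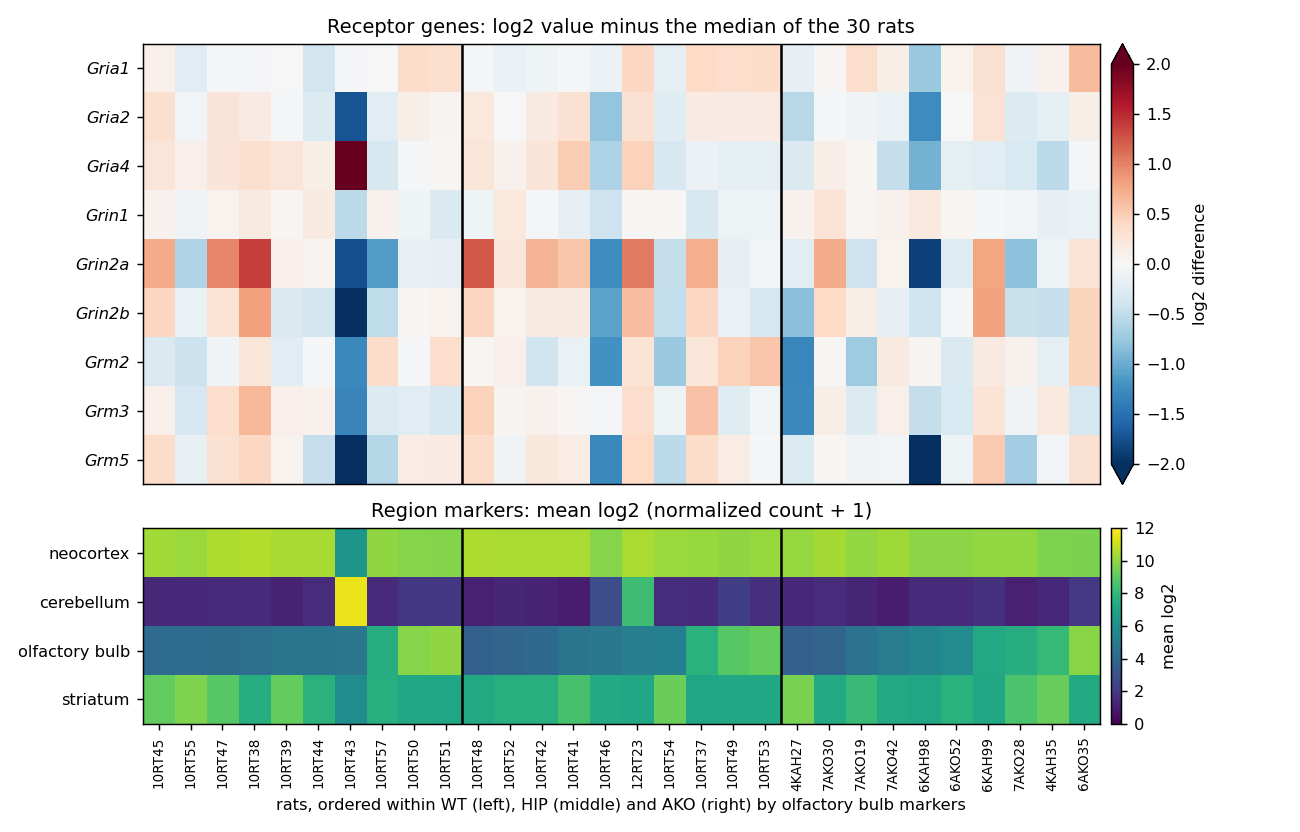
Upper panel, log2 value of each receptor gene minus its median over the 30 rats (color scale from -2 to 2, values beyond it in the end colors); lower panel, mean log2 value of region markers, with the rats ordered within WT, HIP and AKO by olfactory bulb markers. The column of 10RT43 combines high Gria4, low Grin2b and Grm5 and cerebellum markers at 11.6.

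Across rats some pairs of receptor genes varied together and others did not. Over all 30 rats Pearson's r of log2 values was 0.95 for Gria2 with Grm5 and 0.90 for Grin2b with Grm5, and over the 25 rats without the libraries that stood apart it was 0.83 for both. Grin2a with Grin2b had r of 0.69 over 30 rats and 0.81 over 25. Gria4 with Gria2 went from -0.13 over 30 rats to 0.56 over 25, the change that leaving out 10RT43 and the other 4 libraries made. Grin1 had r over 25 rats of -0.57 with Gria1, -0.29 with Gria2, -0.26 with Grm5, -0.23 with Grm2 and -0.03 with Grin2b. Its r over 25 rats was 0.13 with Gria4, 0.11 with Grin2a and 0.01 with Grm3. Over 30 rats its r ran from -0.34 with Gria1 to 0.51 with Grin2b. Gria4 with Grin2b went from -0.49 over 30 rats to 0.54 over 25, and Gria4 with Gria1 from 0.13 to -0.21. These values describe libraries that share group, depth and region content, and carry no test. Among 13712 genes, those most like Gria2 over 30 rats were Map9 (0.97) and Cyria (0.96), those most like Grin2a were Dgkh (0.97) and Myo5a (0.97), and those most like Grm5 were Chrna7 (0.97) and Tenm4 (0.97). Likeness to Grin2b was highest for Kctd16 (0.97) and Lrrc7 (0.97), to Gria4 for Api5 (0.92) and Capn7 (0.91), to Gria1 for Slc4a7 (0.90) and Pcdh17 (0.89), and to Grin1 for Nol6 (0.90) and Ap2a1 (0.87). Grm3 was most like Unc13b (0.86) and Acaca (0.86), and Grm2 was most like Stard8 (0.78) and Ttyh3 (0.78). Over the 25 rats Myo5a was the gene most like Grin2a (0.97), whereas Dgkh fell to rank 10 (0.95) and Chrna7 fell to rank 454 for Grm5 (0.75).

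Of 67 other genes of the glutamate synapse in 6 lists (11 further ionotropic and 5 metabotropic receptors, 16 auxiliary subunits, 20 scaffold and trafficking genes, 12 genes of transport and metabolism and 3 adenosine deaminases), 2 were called in HIP vs. WT rats, 5 in AKO vs. WT rats and 6 in HIP vs. AKO rats at an unadjusted p under 0.05 in limma, and none after adjustment. These are 2.99%, 7.46% and 8.96% of the 67, beside 2.57%, 9.34% and 12.7% of all genes tested. The median differences of the 67 genes were 0.06, 0.04 and -0.01, beside 0.00 over all genes in each comparison. In HIP vs. WT rats the lower genes were Grin3b, an NMDA receptor subunit (-0.61, unadjusted p = 0.0361), and Adarb1, the deaminase that edits Gria2 transcripts (-0.23, unadjusted p = 0.0372). Without the 5 libraries both missed the threshold, at -0.42 (unadjusted p = 0.121) and -0.13 (unadjusted p = 0.169).

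In AKO vs. WT rats Cnih2, an AMPA receptor auxiliary subunit (0.46, unadjusted p = 0.0494), Dlg4, the scaffold PSD-95 (0.27, unadjusted p = 0.0478), and Dlgap4, a scaffold partner of it (0.26, unadjusted p = 0.0177), were higher. Adarb1 (-0.28, unadjusted p = 0.0229) and Grm4 (-0.75, unadjusted p = 0.0388) were lower, and of these 5 only Dlgap4 stayed past the threshold without the 5 libraries (0.15, limma, unadjusted p = 0.0247). Shisa7, a gene of the auxiliary list, was at 133.9, 2198 and 2665 in WT rats, 1630.0, 2175 and 2701 in HIP rats, and 2307, 2731 and 3130 in AKO rats. The lowest WT rat was 10RT43, and the AKO rats lay at the upper end. In AKO vs. WT rats Shisa7 differed by 0.66 (unadjusted p = 0.0983), and without the 5 libraries by 0.28 (SE 0.08, limma, unadjusted p = 0.00156, adjusted p = 0.183).

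In HIP vs. AKO rats Shisa7 (-0.26, unadjusted p = 0.00549), Cacng8 (-0.22, unadjusted p = 0.0336), Dlg4 (-0.21, unadjusted p = 0.00562), Dlgap4 (-0.21, unadjusted p = 0.0220) and Dlgap3 (-0.27, unadjusted p = 0.0225) were lower. These are 2 of 16 auxiliary and 3 of 20 scaffold genes, or 12.5% and 15.0%, beside 12.7% of all genes tested. Grik1, a kainate receptor subunit, was higher (0.20, unadjusted p = 0.0458). Without the 5 libraries Shisa7 (-0.26), Dlg4 (-0.14), Dlgap4 (-0.15) and Grik1 (0.23) kept an unadjusted p under 0.05 in limma, and Cacng8 (-0.16) and Dlgap3 (-0.16) did not. Glutamate transport and metabolism genes had no call in any of the 3 comparisons.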

How the data were processed

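RNA from brain tissue labelled frontal cortex of 10 WT, 10 HIP and 10 AKO rats was sequenced (SMARTER mRNA-Seq libraries), 1 library per rat. Per the labels and the methods, the authors processed reads in Partek Flow 10.0.22.0228 with STAR 2.7.8a (Bowtie2 is also named), build rn7 and Ensembl release 105, and deposited a signal per gene, read counts scaled by DESeq2 size factors. Under 100, a median of 82.0% of a library's values were whole multiples of 1 read (tolerance 0.02 reads), too few to run a count test; the multiples gave estimated depths of about 12900000 to 23600000 reads. Separate rats make up the replicates.

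Here limma 3.58.1 (R 4.3.3; lmFit, eBayes with trend, two-sided) was run on log2(normalized count + 1) for the rats of each pair of groups, over genes with a mean of at least 1, with Benjamini-Hochberg adjustment over all of them. The call rule was an unadjusted p under 0.05, with the adjusted p beside it. Tested on simulated counts with planted 2-fold changes, the fit recovered most of them. The simulation used the same setting of spread for all genes and held no libraries with markers of other tissue. It therefore does not show which changes the fit could find in these rats. Intervals are 95% intervals of the fit. Alternatives were other pseudocounts (0.1, 5), filters, scalings, weights, covariates and sets of rats. Named were all members, other receptors past the threshold, the leading genes of the further lists, and the 2 genes most like each member; some genes that this rule names are not reported here. The members, the gene lists and the tests were chosen with earlier results of these data known, and the 5 libraries left out, the bulb limit of 6.5 and the residual component were chosen after seeing the data. Gene names were those of the table, and sequences came from RefSeq (GRCr8).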

Additional observations from a re-analysis of the deposited data

Results flagged for a closer look

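Of 39 groups of 10 rats examined for a rat far from the others (9 genes and 4 subunit shares or ratios in each of 3 groups), 7 held one, where chance flags about 1 in 20 groups, or 1.95 of 39. Of these, 6 were WT rat 10RT43, the library with cerebellum markers at 11.6 and neocortex markers at 6.31. In that rat Gria2 was at 2277 normalized counts beside 6214 in the nearest WT rat, Gria4 was at 7314 beside 2227, and Grm5 was at 58.6 beside 976. Its Grin2a to Grin2b ratio was 19.4 beside 2.96, its Gria2 share of the summed AMPA subunit counts was 19.3% beside 62.8%, and its Gria4 share was 62.2% beside 19.7%. The other was HIP rat 10RT46, the library with pineal gland markers at 9.40, in which the Gria2 share was 57.7% beside 63.1% in the nearest HIP rat. The part of other tissue in these libraries was not tested.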

How the results depend on the processing

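No paired analysis was possible because the rats carry names and no replicate numbers shared between groups. Of 594 fold changes under alternatives other than leaving out 1 rat, 495 kept direction and side of the threshold, 21 moved past it, 26 missed it and 52 reversed. With each rat left out, 488 of 540 were kept, 4 passed, 23 missed and 25 reversed. The cause of a change was not tested. The Gria4 call in AKO vs. WT rats held with each rat left out (-0.65 to -0.39) and missed the threshold with AKO-named rats only and within bulb-rich libraries.

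Counts of all genes called (unadjusted, then adjusted p under 0.05) changed by over 1.5 times as follows. In HIP vs. WT rats (439, 0) they were 885 with sample-quality weights, 2475 with striatum, olfactory bulb, hippocampus and thalamus covariates, 4107 and 741 with estimated reads, 1569 with the residual component (0.866% of genes after adjustment), 968 with that component without the 5 libraries, 817 without 10RT43 and 10RT46, and 678 in bulb-rich libraries. In AKO vs. WT rats (1594, 17) they were 3930 and 857 with weights, 2737 and 408 with the residual component, 45 adjusted with it without the 5 libraries, 561 and 0 in bulb-rich and 5 adjusted in bulb-poor libraries, and, adjusted, 31 with library number, 48 with the neocortex covariate, 27 with all rats in 1 fit, 68 with AKO-named and 0 with KAH-named rats. In HIP vs. AKO rats (2179, 29) they were 4289 and 1143 with weights, 3505 and 379 with the residual component, 78 higher and 78 lower after adjustment with it without the 5 libraries, 1018 and 0 in bulb-rich and 8 adjusted in bulb-poor libraries, and, adjusted, 16 with the 4 region covariates, 70 without 10RT43 and 10RT46, 56 with all rats in 1 fit, 19 with the cerebellum covariate, 120 with AKO-named and 3 with KAH-named rats. With 1 rat left out they ranged from 309 to 779 in HIP vs. WT rats (highest without 10RT46) and, adjusted, from 10 to 39 in AKO vs. WT and 17 to 70 in HIP vs. AKO rats (70 without 10RT46).

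Receptor genes called in HIP vs. WT rats (0 of 9) became 4 with the region covariates, 5 with estimated reads (1 adjusted, Gria4) and 3 with the residual component. All genes called in those fits were, in the same order, 2475, 4107 and 1569 of 17085. With estimated reads 741 of all genes were called after adjustment. In AKO vs. WT rats (1) they became 2 with the residual component and 0 in bulb-rich libraries or AKO-named rats. All genes called in those fits were 2737 of 17058, 561 of 17006 and 1269 of 17036. Gria4 passed the adjusted threshold with weights (limma, adjusted p = 0.0244) and with the residual component. After adjustment 857 and 408 of all 17058 genes were called in those fits. In HIP vs. AKO rats (2) the count was 4 without 10RT46, with or without 10RT43, 3 with weights and with the residual component, and 1 or 0 under other settings, among them 1 without the 5 libraries and 0 without 6KAH98. All genes called were 3005 of 17040 without 10RT46, 4289 of 17092 with weights and 3505 of 17092 with the residual component. Counts of the 6 other lists stayed between 0 and 10. In HIP vs. WT rats with estimated reads the auxiliary list rose from 0 to 10 of 16 and the scaffold list to 9 of 20. That fit also called 8 of 11 ionotropic, 4 of 5 metabotropic and 6 of 12 transport genes. Of all 17085 genes it called 4107. In AKO vs. WT rats the auxiliary list ran from 0 to 7 and the scaffold list from 0 to 6, while all genes called ran from 561 to 3930. In HIP vs. AKO rats the 2 lists ran from 0 to 4 and from 0 to 5, while all genes called ran from 1018 to 4289.

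Reversed differences were past no threshold. Without the 5 libraries, with or without the residual component, AKO vs. WT gave -0.0048 for Grin1, -0.072 for Grin2b and -0.074 for Grm5, and HIP vs. AKO gave -0.039 for Gria1. Weights gave -0.017 for Grin1, -0.044 for Grin2b and -0.19 for Grm5 (AKO vs. WT) and -0.032 for Gria1 (HIP vs. AKO). Leaving out 10RT43 gave -0.092 for Grin2b and -0.32 for Grm5 (AKO vs. WT), and the cerebellum covariate gave -0.12 and -0.35, and -0.011 for Gria1 and -0.014 for Grin2b in HIP vs. AKO. Region covariates gave -0.094 for Grm5 (AKO vs. WT) and -0.11 for Grin2b (HIP vs. AKO). Estimated reads gave 0.066 for Grin1 (HIP vs. WT), and 0.085 for Gria2, 0.042 for Grin2a, 0.11 for Grm2 and 0.00094 for Grm3 (AKO vs. WT). Bulb-rich libraries gave 0.0067 for Gria2, 0.51 for Grin2a and 0.29 for Grm3 (AKO vs. WT) and -0.11 for Grin2b (HIP vs. AKO). Bulb-poor libraries gave -0.046 for Grin2b, -0.090 for Grm2, -0.056 for Grm3 and -0.065 for Grm5 (HIP vs. WT), -0.28 for Grin2b and -0.20 for Grm5 (AKO vs. WT), and -0.099 for Gria1 (HIP vs. AKO). The neocortex covariate gave -0.0059 for Gria2, -0.078 for Grin2b, -0.071 for Grm2 and -0.084 for Grm5 (HIP vs. WT), -0.041 for Grm5 (AKO vs. WT) and -0.19 for Grin2b (HIP vs. AKO). AKO-named rats gave 0.077 for Gria2 and 0.097 for Grm2 (AKO vs. WT), and -0.091 for Gria1, -0.068 for Grin2b and -0.037 for Grm2 (HIP vs. AKO), and KAH-named rats gave -0.14 for Gria1 and for Grm5 (AKO vs. WT). Without 6KAH98, Gria2 was 0.047 and Grin2a 0.059 (AKO vs. WT) and Gria1 -0.052 (HIP vs. AKO). With each rat left out, HIP vs. WT ran from -0.048 to 0.61 for Grin2b, -0.068 to 0.18 for Grm2 and -0.062 to 0.54 for Grm5, the lowest value in each without 10RT43. AKO vs. WT ran from -0.015 to 0.14 for Gria1, -0.25 to 0.047 for Gria2, -0.32 to 0.059 for Grin2a, -0.092 to 0.56 for Grin2b, -0.14 to 0.12 for Grm2, -0.23 to 0.026 for Grm3 and -0.32 to 0.39 for Grm5, and HIP vs. AKO from -0.052 to 0.10 for Gria1, -0.043 to 0.16 for Grin2b and -0.056 to 0.20 for Grm2.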
